A study of Mus musculus with 14 samples.

Results

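The comparison described here sets DR-ESC, the cells that still carried green fluorescence (GFP) after neural differentiation, against NPC(GFP-), the cells that had lost it, gene by gene. Both came from Oct4-GFP, a mouse embryonic stem (ES) cell line with a GFP reporter named after Oct4, a gene active in pluripotent cells. The line was grown on mitomycin C-treated fibroblast feeder cells in medium with serum and 10 ng/ml of the cytokine LIF, and was differentiated in N2B27 medium. At day 8, GFP-positive cells were sorted and then grown further in ES cell medium to give DR-ESC (differentiation-resistant cells), and GFP-negative cells were sorted to give NPC(GFP-), labelled as neural progenitor cells. The 2 groups therefore differ in the sort and in the later culture, and the labels do not say that they came from the same dish. The promoter fragment of the reporter, its place in the genome and the number of clones could not be learned from the labels.

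Poly(A) RNA was sequenced, with 1 library for each of 4 populations, within a series of 14 samples that also has chromatin libraries, not analysed here. The other RNA libraries, used for levels only, are Oct4-GFP-ESC, the undifferentiated line, and Oct4-GFP-H-ESC, its cells sorted for high GFP. Values are FPKM, read fragments scaled by transcript length and by library depth. Of 13180 genes in the table, the 12649 with at least 1 FPKM in DR-ESC or NPC(GFP-) were compared. Each difference is a log2 ratio, the log2 of (FPKM + 1) in DR-ESC over that in NPC(GFP-), and positive values mean higher in DR-ESC. With 1 library a side there is no test and no estimate of spread, the depth is unknown, and "higher" or "lower" below means at least 2-fold on this scale.

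Mouse ES cells are held in the pluripotent state by a circuit around the transcription factors Oct4 (gene Pou5f1), Sox2 and Nanog. When serum and LIF are removed and FGF signalling acts, the cells pass through a formative, epiblast-like stage, which Otx2 and Fgf5 mark, and then switch on Sox1 and Pax6 as neural progenitors. Notch signalling keeps part of the progenitors dividing, while proneural factors such as Neurog2 start the making of neurons.

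DR-ESC exceeded NPC(GFP-) at 1465 genes, 11.6% of those compared, and was below it at 1792 genes, 14.2%. These are the shares to set beside every count of list members below. In bulk RNA such as this, fewer cells of a type and less RNA per cell cannot be told apart. The remaining 9392 genes differed by less than 2-fold, and the median of all log2 ratios was -0.048, with quartiles of -0.58 and 0.47. At least 4-fold, 449 genes were higher (3.55%) and 515 lower (4.07%), and at least 32-fold, 26 were higher and 4 lower. The 4 lower genes include 2 small nucleolar RNAs, Snora70 and Snord15a, both listed at 0 in DR-ESC. The threshold falls in a dense part of the distribution. In both directions together, 381 genes lay just inside it (absolute log2 ratio 1 to 1.1) and 461 just outside (0.9 to 1). Across genes the libraries correlated with a Pearson r of 0.824 on log2(FPKM + 1), which is a description over genes, not over replicates.

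**Figure D1:**
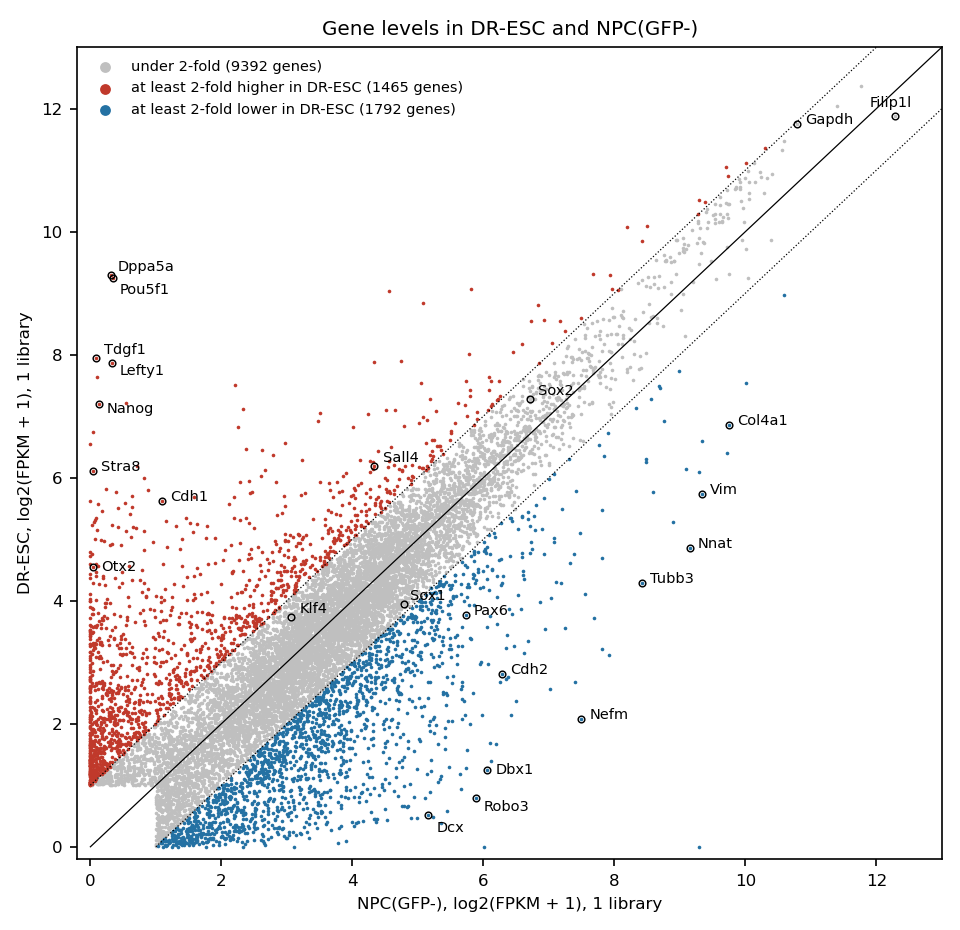
Level of each of 12649 genes in NPC(GFP-) (horizontal axis) and DR-ESC (vertical axis), both as log2(FPKM + 1) from 1 library each. The solid line marks equal levels and the dotted lines 2-fold differences. A cloud of higher genes lies along the left edge, near 0 in NPC(GFP-), with Dppa5a and Pou5f1 at its top, while Nefm, Robo3 and Dcx lie far to the lower right.

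The highest ratio was that of Dppa5a, an RNA-binding protein of pluripotent cells, at 624 FPKM in DR-ESC and 0.246 FPKM in NPC(GFP-) (log2 ratio 8.97). Pou5f1 followed with 609 FPKM in DR-ESC and 0.276 FPKM in NPC(GFP-) (log2 ratio 8.90). Since the cells were sorted on an Oct4-named reporter, this difference is tied to the sort and checks the labels. The next ranks went to the Nodal co-receptor Tdgf1 at 245 FPKM in DR-ESC and 0.0612 FPKM in NPC(GFP-) and the Nodal inhibitor Lefty1 at 232 FPKM in DR-ESC and 0.251 FPKM in NPC(GFP-). The chromatin protein Utf1 stood at 199 FPKM in DR-ESC and 0.0738 FPKM in NPC(GFP-), Nanog at 145 FPKM in DR-ESC and 0.0918 FPKM in NPC(GFP-), and the second Nodal inhibitor, Lefty2, at 107 FPKM in DR-ESC and 0.0311 FPKM in NPC(GFP-). All of these were under 0.3 FPKM in the GFP-negative cells. Trh, the precursor of thyrotropin-releasing hormone, was at 92.9 FPKM in DR-ESC and listed at 0 in NPC(GFP-), so no fold is given. Others among the 15 highest were the secreted phosphoprotein Spp1 (148 FPKM in DR-ESC and 0.463 FPKM in NPC(GFP-)), the threonine-degrading enzyme Tdh (53.4 FPKM in DR-ESC and 0.306 FPKM in NPC(GFP-)), the DNA-binding pair Dppa2 and Dppa4, the interferon-induced membrane protein Ifitm1 and the mitochondrial protein Chchd10. Stra8, which germ cells need to enter meiosis, was also among the 15, at 67.9 FPKM in DR-ESC and 0.0282 FPKM in NPC(GFP-).

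At the other end, with small RNA genes left out of the ranks, the lowest ratio belonged to Nefm, the medium neurofilament chain, at 3.22 FPKM in DR-ESC and 178 FPKM in NPC(GFP-) (log2 ratio -5.41). It was followed by Robo3, an axon guidance receptor of commissural neurons, at 0.729 FPKM in DR-ESC and 58 FPKM in NPC(GFP-) (log2 ratio -5.09), and by the neuropeptide somatostatin, Sst, at 0.311 FPKM in DR-ESC and 39.8 FPKM in NPC(GFP-). The 15 lowest genes include transcription factors of new neurons or of neural tube domains with a basic helix-loop-helix, zinc finger or homeobox domain: Scrt2, Scrt1, Nhlh1, Nhlh2 and Dbx1. The nuclear receptor Nr2f1 was also among the 15. The long noncoding RNA Miat was at 7.65 FPKM in DR-ESC and 241 FPKM in NPC(GFP-), and Fabp7, the fatty acid binding protein of radial glia, at 5.41 FPKM in DR-ESC and 168 FPKM in NPC(GFP-). The microtubule-associated protein Dcx of migrating neurons was at 0.43 FPKM in DR-ESC and 34.6 FPKM in NPC(GFP-). All 15 were above 0 in DR-ESC, at 0.311 (Sst) to 7.65 FPKM (Miat), and several, such as Dcx, were under 0.5 FPKM. Most of the 15 highest were under 0.5 FPKM in NPC(GFP-), but only Trh was listed at 0 there.

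Across the table, levels near 0 were more frequent in NPC(GFP-). Among the higher genes, 148 were listed at 0 in NPC(GFP-) and 327 were under 0.1 FPKM there, whereas among the lower genes 8 were listed at 0 in DR-ESC and 97 were under 0.1 FPKM. Over all genes, 244 were listed at 0 in NPC(GFP-), against 28 in DR-ESC, while the unsorted and the GFP-high ES cells had 60 and 56. How far library depth, which is not known, plays a part in these counts was not tested.

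Pluripotency genes were higher in DR-ESC in most cases. Of the 4 core factors 3 were higher, with a median log2 ratio of 4.46 against -0.048 for all genes. That list includes Pou5f1, which is tied to the sort, and the middle value of the other 3 is the 1.85 of Sall4. The exception was Sox2, which both ES cells and neural progenitors use, at 155 FPKM in DR-ESC and 103 FPKM in NPC(GFP-). Sall4 itself, a zinc finger partner of Oct4, was at 71.8 FPKM in DR-ESC and 19.2 FPKM in NPC(GFP-), so NPC(GFP-) kept a clear level of it. Of 16 factors of the naive state, 12 were higher and 0 lower, with a median of 3.12. They include the nuclear receptor Esrrb (62.8 FPKM in DR-ESC and 0.77 FPKM in NPC(GFP-)), Klf2 (51.2 FPKM in DR-ESC and 0.557 FPKM in NPC(GFP-)), Zfp42, also called Rex1 (27.4 FPKM in DR-ESC and 0.771 FPKM in NPC(GFP-)), and the germ line and ES cell factor Prdm14 (7.52 FPKM in DR-ESC and 0.0588 FPKM in NPC(GFP-)). Klf4 did not reach 2-fold, at 12.3 FPKM in DR-ESC and 7.35 FPKM in NPC(GFP-), and its level in DR-ESC was also far under the 109 FPKM of Oct4-GFP-ESC and the 72.6 FPKM of Oct4-GFP-H-ESC. Tet2, Stat3 and Gbx2 also stayed under 2-fold, and Gbx2 had a negative ratio of -0.67. Of 34 other stem cell genes, 30 were higher and 0 lower (median 4.10). In the median gene of that list, NPC(GFP-) held 1.0% of the DR-ESC level. The 4 that were not higher were Sall1, Lin28b, Mycn and Jam2, and Mycn was near equal at 31.9 FPKM in DR-ESC and 33.6 FPKM in NPC(GFP-). Klf4 was not alone in lying under the ES cell libraries. The DR-ESC level was under both in 2 of the 4 core factors, 11 of the 16 naive factors and 21 of the 34 other stem cell genes. It was above both in 0, 2 and 4 of them. Pou5f1, at 609 FPKM in DR-ESC, was at 1881 and 1037 FPKM in the ES cell libraries.

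**Figure D2:**
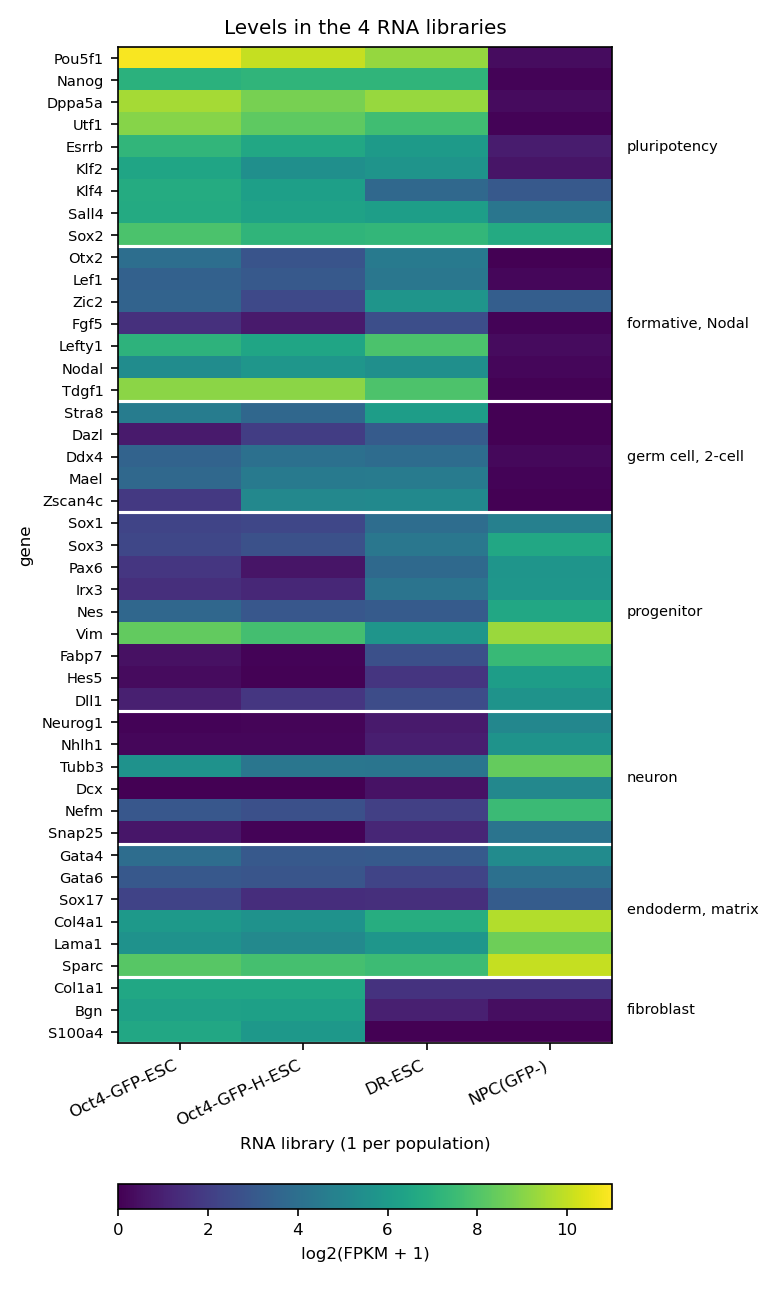
Levels of selected genes (rows) in the 4 RNA libraries (columns), as log2(FPKM + 1) by colour, from dark (0) to yellow (11). DR-ESC and NPC(GFP-) separate at the pluripotency, formative, germ cell, progenitor and neuron blocks, Sox2 and Sox1 are present in both, and the fibroblast markers Col1a1, Bgn and S100a4 are at or under about 2 FPKM in both while high in the ES cell libraries.

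Promoter sequences were read for these genes because CpG content, which the comparison did not use, differed between higher and lower genes, as described further on. The 300 bases from 250 before to 50 after the transcription start come from RefSeq, build GRCm38.p6. The CpG ratio is the observed number of CG pairs over that expected from the C and G content. Each sequence below reads 5′ to 3′ on the gene's strand, with CG pairs in capitals. Nanog (chr6:122707239-122707538, plus strand) had the lowest CpG ratio, 0.192 with 4 CG pairs, among the promoters at hand of the 15 highest genes, and Trh (chr6:92244601-92244900, minus strand) the highest, 0.876 with 28 pairs. Nhlh1 (chr1:172057547-172057846, minus strand) had the lowest among those of the 15 lowest genes, 0.0840 with 2 pairs, and Miat (chr5:112228899-112229198, minus strand) the highest, 0.807 with 25 pairs.
Nanog promoter: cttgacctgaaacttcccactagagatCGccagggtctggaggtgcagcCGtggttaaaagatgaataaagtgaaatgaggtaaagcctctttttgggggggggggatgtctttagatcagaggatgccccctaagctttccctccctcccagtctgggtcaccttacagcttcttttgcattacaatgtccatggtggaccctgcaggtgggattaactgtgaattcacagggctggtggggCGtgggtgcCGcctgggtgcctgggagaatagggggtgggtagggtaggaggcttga
Trh promoter: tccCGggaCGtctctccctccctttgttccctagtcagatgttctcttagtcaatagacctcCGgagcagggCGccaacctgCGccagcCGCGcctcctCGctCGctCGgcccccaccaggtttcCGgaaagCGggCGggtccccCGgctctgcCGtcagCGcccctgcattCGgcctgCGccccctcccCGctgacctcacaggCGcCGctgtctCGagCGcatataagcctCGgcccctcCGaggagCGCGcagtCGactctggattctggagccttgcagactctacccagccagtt
Nhlh1 promoter: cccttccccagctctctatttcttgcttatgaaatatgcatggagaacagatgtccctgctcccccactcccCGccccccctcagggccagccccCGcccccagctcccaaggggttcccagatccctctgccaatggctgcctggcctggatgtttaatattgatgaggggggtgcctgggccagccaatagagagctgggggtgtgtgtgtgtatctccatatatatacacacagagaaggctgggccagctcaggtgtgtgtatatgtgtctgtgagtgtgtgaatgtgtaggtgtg
Miat promoter: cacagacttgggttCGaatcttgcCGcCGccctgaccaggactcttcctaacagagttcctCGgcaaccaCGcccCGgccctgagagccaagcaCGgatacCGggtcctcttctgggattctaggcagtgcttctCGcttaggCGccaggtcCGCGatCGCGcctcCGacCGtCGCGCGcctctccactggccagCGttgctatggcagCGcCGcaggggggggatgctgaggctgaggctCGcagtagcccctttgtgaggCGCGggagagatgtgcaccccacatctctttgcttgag
Both ends of the comparison thus include a CpG-poor and a CpG-rich promoter.

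The octamer ATTTGCAT, the known binding sequence of POU factors such as Oct4, was searched on both strands of the same windows. It was found in 2.27% of the promoters of higher genes, 2.29% of those of lower genes and 1.51% of those of all genes compared, against 1.75% of all 27025 RefSeq promoters in the table. The share was therefore alike in higher and lower genes. It occurs in the promoter of Zfp42 (chr8:43306960-43307259, minus strand), printed here as an example with the octamer in capitals.
Zfp42 promoter: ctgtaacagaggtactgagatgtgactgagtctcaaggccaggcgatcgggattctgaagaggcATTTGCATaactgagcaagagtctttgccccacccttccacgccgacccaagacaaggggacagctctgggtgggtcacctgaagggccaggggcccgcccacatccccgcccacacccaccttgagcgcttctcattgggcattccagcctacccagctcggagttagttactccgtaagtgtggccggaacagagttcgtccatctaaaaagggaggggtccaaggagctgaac
A match is a description of letters and not of binding.

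Formative and primed factors were mixed, with 14 of 22 higher and 6 lower (median 2.12). The higher members mark the epiblast. Otx2, a homeobox factor of the formative switch, was at 22.5 FPKM in DR-ESC and 0.0231 FPKM in NPC(GFP-), Lef1, a Wnt effector, at 19.7 FPKM in DR-ESC and 0.14 FPKM in NPC(GFP-), and Fgf5, the classical marker of primed epiblast, at 5.31 FPKM in DR-ESC and 0.0764 FPKM in NPC(GFP-). Zic2, a zinc finger factor of the epiblast and neural plate, was at 52.7 FPKM in DR-ESC and 8.66 FPKM in NPC(GFP-), and its levels in the ES libraries were 10.3 and 4.42 FPKM. Against the ES cell libraries the 14 higher members were divided. In 7 of them, Otx2, Lef1, Fgf5 and Zic2 included, the DR-ESC level was above both ES cell libraries, and in 4 it was under both. The latter were Etv4 (16.2 FPKM in DR-ESC against 101 and 92 FPKM), Tcf15, Foxd3 and Eomes. The lower members, several of which neural cells also use, were N-cadherin (Cdh2), Sox11, Sox3, Sfrp2, Foxa2 and Sall2. Sox3, for instance, was at 19.4 FPKM in DR-ESC and 96.9 FPKM in NPC(GFP-).

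Germ line genes were mostly higher in DR-ESC, many against levels near 0 in NPC(GFP-), but many were present in the ES cell libraries too. Of 18 primordial germ cell factors 15 were higher and 1 lower, with a median log2 ratio of 2.62. Pou5f1, which is tied to the sort, is one of the 15, and without it the middle value is the 2.55 of Prdm1. In 4 of the 15 the DR-ESC level was above both ES cell libraries, and in 4 it was under both. The median member was at 23.8 FPKM in DR-ESC, against 28.7 and 11.8 FPKM in the unsorted and the GFP-high ES cells. Tfap2c, a specifier of germ cells, was at 28.8 FPKM in DR-ESC and 0.228 FPKM in NPC(GFP-), Prdm1, also called Blimp1, at 5.43 FPKM in DR-ESC and 0.0965 FPKM in NPC(GFP-), and Dppa3, also called Stella, at 23.2 FPKM in DR-ESC and 0.0577 FPKM in NPC(GFP-). The lower member was Cxcr4, a chemokine receptor that endoderm and neural cells use too, at 3.24 FPKM in DR-ESC and 50.2 FPKM in NPC(GFP-). The receptor Kit was level at 23 FPKM in DR-ESC and 22.5 FPKM in NPC(GFP-), although both exceeded the 7.39 and 7.98 FPKM of the ES cell libraries. Of 39 genes for germ cells, meiosis and the piRNA pathway, which silences transposons, 30 were higher and 1 lower (median 2.18). In 17 of the 30 the DR-ESC level was above both ES cell libraries, and in 4 it was under both. Over the 40 in the table, the median member was at 4.90 FPKM in DR-ESC, against 3.25 and 4.36 FPKM in the ES cell libraries. The RNA-binding protein Dazl was at 8.0 FPKM in DR-ESC and listed at 0 in NPC(GFP-). The helicase Ddx4 was at 13.9 FPKM in DR-ESC and 0.164 FPKM in NPC(GFP-), the piRNA factor Mael at 22.6 FPKM in DR-ESC and 0.0787 FPKM in NPC(GFP-), the synaptonemal complex protein Sycp3 at 11.1 FPKM in DR-ESC and 0.0769 FPKM in NPC(GFP-), and Sohlh2, a factor of early germ cell differentiation, at 17.2 FPKM in DR-ESC and 0.836 FPKM in NPC(GFP-). Tdrkh, a piRNA scaffold, was the lower one, at 3.54 FPKM in DR-ESC and 11.1 FPKM in NPC(GFP-).

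The 2-cell-like genes, which a small share of ES cells switch on for a time, were higher in 18 of 19 cases and lower in none (median 2.76). In NPC(GFP-) 11 of them were listed at 0. Zscan4c was at 36.4 FPKM in DR-ESC and 0.017 FPKM in NPC(GFP-), and its near-identical copies Zscan4a, Zscan4b, Zscan4d, Zscan4e and Zscan4f, among which reads cannot be told apart with certainty, ranged from 12.1 to 37.8 FPKM in DR-ESC. Zscan4c was at 34.6 FPKM in Oct4-GFP-H-ESC and 2.59 FPKM in Oct4-GFP-ESC, so both GFP-sorted stem cell libraries had it high. Dux, the factor that starts this program, was at 2.58 FPKM in DR-ESC and listed at 0 in NPC(GFP-).

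Neural progenitor genes lay on the other side almost without exception. Of 32 compared, 31 were lower in DR-ESC and none was higher, with a median log2 ratio of -2.39. In the median gene, DR-ESC held 12.5% of the NPC(GFP-) level. The intermediate filaments of progenitors were Nes, at 7.92 FPKM in DR-ESC and 96.9 FPKM in NPC(GFP-), and Vim, at 52 FPKM in DR-ESC and 643 FPKM in NPC(GFP-). Pax6, the eye and neural tube factor, was at 12.7 FPKM in DR-ESC and 52.1 FPKM in NPC(GFP-), and Irx3, which patterns the neural tube, at 17.7 FPKM in DR-ESC and 53.9 FPKM in NPC(GFP-). The one gene under 2-fold was Sox1, the earliest specific neural gene, at 14.4 FPKM in DR-ESC and 26.6 FPKM in NPC(GFP-). In the ES libraries Sox1 was at 3.73 and 4.11 FPKM, Pax6 at 2.34 and 0.54 FPKM, and Irx3 at 1.82 and 1.36 FPKM. DR-ESC thus had more of Sox1, Pax6 and Irx3 than both undifferentiated libraries and less than NPC(GFP-). The DR-ESC level was above both ES cell libraries in 24 of the 32 compared and under both in 4. Vim was among the 4, with 328 and 207 FPKM in the ES cells, while Nes lay between their 11.7 and 6.87 FPKM. The summed level of the list was 247 FPKM in DR-ESC, 2005 in NPC(GFP-), and 427 and 286 in the ES cell libraries. Vim alone made up 52, 643, 328 and 207 FPKM of these sums. Fibroblast markers were also high in the ES cell libraries, as described below, and their part in the Vim level was not tested. Nr2f1, a nuclear receptor of later progenitors, was at 1.28 FPKM in DR-ESC and 49 FPKM in NPC(GFP-), and Fabp7 at 5.41 FPKM in DR-ESC was also above the 0.412 and 0.0665 FPKM of the ES cells.

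Genes that pattern the spinal cord, both dorsal and ventral, were also higher in the GFP-negative cells. Of 24 compared, 16 were lower in DR-ESC and 1 higher (median -1.62). Dbx1, of the middle interneuron domains, was at 1.38 FPKM in DR-ESC and 65.3 FPKM in NPC(GFP-), Lbx1, of dorsal interneurons, at 0.324 FPKM in DR-ESC and 19.5 FPKM in NPC(GFP-), and Nkx6-1, of the ventral neural tube, at 1.66 FPKM in DR-ESC and 35.9 FPKM in NPC(GFP-). The dorsal factor Pax3 was at 0.752 FPKM in DR-ESC and 15.3 FPKM in NPC(GFP-), and the ventral morphogen Shh at 0.512 FPKM in DR-ESC and 6.73 FPKM in NPC(GFP-). Lmx1a, a roof plate factor, was the higher one (log2 ratio 1.13). Hox genes, which set position along the body axis, differed by member. Of 13 compared, 6 were lower and 4 higher (median -0.87). The lower ones were Hoxc4 (1.45 FPKM in DR-ESC and 26 FPKM in NPC(GFP-)), Hoxc5, Hoxb5, Hoxb7, Hoxb8 and Hoxa4. The higher ones were Hoxb1 and, from the posterior end of the cluster on chromosome 6, Hoxa9 (4.24 FPKM in DR-ESC and 0.068 FPKM in NPC(GFP-)), Hoxa10 (9.38 FPKM in DR-ESC and 0.277 FPKM in NPC(GFP-)) and Hoxa11 (1.64 FPKM, listed at 0 in NPC(GFP-)). In the ES libraries Hoxa10 was at 1.11 and 0.629 FPKM and Hoxa9 at 0.175 and 0.159 FPKM, so both were highest in DR-ESC of the 4 libraries.

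The library labelled as progenitors also held abundant RNA of neurons. Proneural and early neuron factors gave the lowest median of all lists, -2.72, with 32 of 34 lower in DR-ESC and 1 higher, and 27 of the 34 had at least 5 FPKM in NPC(GFP-). The proneural factor Neurog1 was at 0.726 FPKM in DR-ESC and 33.4 FPKM in NPC(GFP-), Neurog2 at 0.233 FPKM in DR-ESC and 9.95 FPKM in NPC(GFP-) and Nhlh1 at 0.912 FPKM in DR-ESC and 49.6 FPKM in NPC(GFP-). The higher one was Eomes, which also marks early mesendoderm (2.3 FPKM in DR-ESC and 0.040 FPKM in NPC(GFP-)). Of 51 genes of the neuronal cytoskeleton and of neurite growth 40 were lower and 3 higher (median -2.51). Neuronal tubulin, Tubb3, was at 18.6 FPKM in DR-ESC and 342 FPKM in NPC(GFP-), and microtubule-associated protein 2, listed as Mtap2, at 3.39 FPKM in DR-ESC and 84.9 FPKM in NPC(GFP-). Stmn2 missed 2-fold at 30.1 FPKM in DR-ESC and 59 FPKM in NPC(GFP-). The 3 higher ones, Nefh, Thy1 and Bex1, were also high in the ES libraries, where Bex1 reached 837 and 469.6 FPKM against 198 in DR-ESC. Synapse and ion channel genes had 27 of 45 lower and 1 higher (median -1.24), for example the vesicle fusion protein Snap25 at 1.26 FPKM in DR-ESC and 17.7 FPKM in NPC(GFP-). Glial genes were less displaced, with 7 of 17 lower and 1 higher (median -0.75). The higher one was Apoe, the lipid carrier of astrocytes and of many other cells, at 237 FPKM in DR-ESC and 25.7 FPKM in NPC(GFP-).

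**Figure D3:**
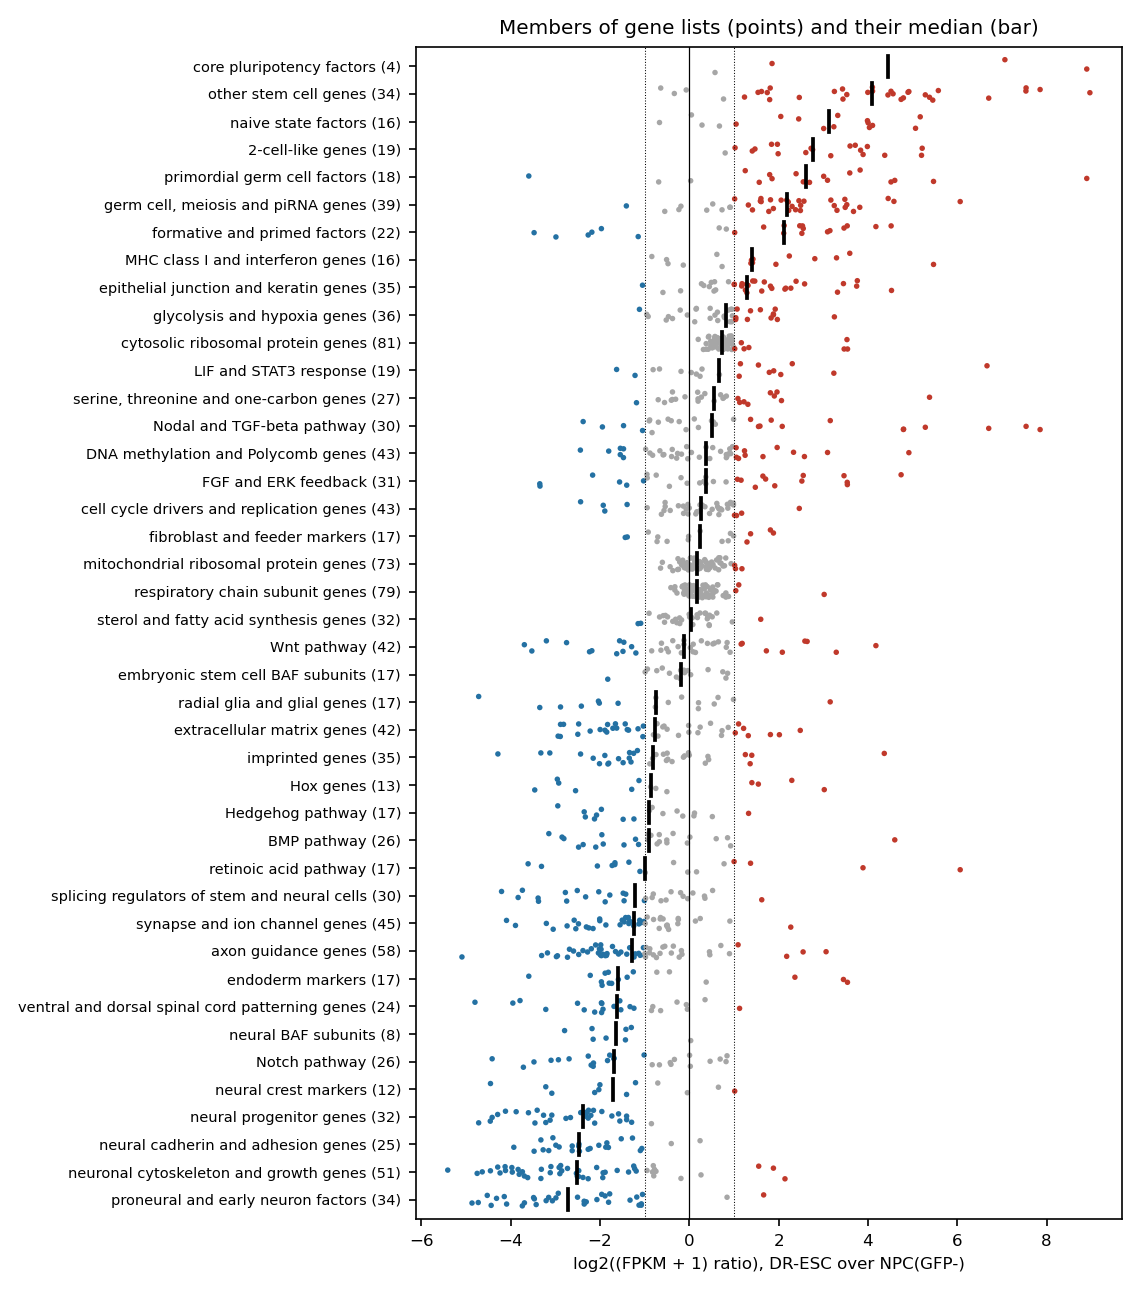
Log2 ratios of DR-ESC over NPC(GFP-) for the members of 42 gene lists (points, with small vertical jitter) and each list's median (bar), with the number of genes compared in parentheses and the dotted lines at 2-fold. Core pluripotency factors, a list that includes Pou5f1, which is tied to the sort, lie at the top (median 4.46). Proneural and early neuron factors lie at the bottom (-2.72). Lists such as Wnt and Nodal components spread to both sides.

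Notch pathway genes followed the progenitors. Of 26 compared, 15 were lower in DR-ESC and none was higher (median -1.69). The ligand Dll1 was at 4.91 FPKM in DR-ESC and 49.5 FPKM in NPC(GFP-), the receptor Notch1 at 7.51 FPKM in DR-ESC and 36.7 FPKM in NPC(GFP-), the feedback inhibitor Nrarp at 3.12 FPKM in DR-ESC and 44.9 FPKM in NPC(GFP-) and the target Hes5 at 2.22 FPKM in DR-ESC and 67.7 FPKM in NPC(GFP-). Not all central members followed, since the effector Rbpj (37.6 FPKM in DR-ESC and 20.8 FPKM in NPC(GFP-)) and the target Hes1 (22.4 FPKM in DR-ESC and 12 FPKM in NPC(GFP-)) had positive ratios under 2-fold. Hedgehog genes gave 8 of 17 lower and 1 higher (median -0.89). The co-receptor Boc was at 2.55 FPKM in DR-ESC and 26.3 FPKM in NPC(GFP-), while the receptor and target Ptch1 was at 35.4 FPKM in DR-ESC and 43 FPKM in NPC(GFP-) and the target Gli1 at 6.94 FPKM in DR-ESC and 6.33 FPKM in NPC(GFP-), both under 2-fold.

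Retinoic acid genes separated by member rather than moving together, with 8 of 17 lower, 4 higher and a median of -0.99. The cytosolic binding proteins Crabp1 and Crabp2 were abundant in NPC(GFP-), Crabp1 at 83.8 FPKM in DR-ESC and 840.4 FPKM in NPC(GFP-) and Crabp2 at 38 FPKM in DR-ESC and 475 FPKM in NPC(GFP-). The receptors went opposite ways, with Rarb at 1.22 FPKM in DR-ESC and 8.25 FPKM in NPC(GFP-) and Rarg at 39.7 FPKM in DR-ESC and 1.74 FPKM in NPC(GFP-). Wnt genes were balanced at 8 higher and 12 lower of 42 (median -0.12). The ligands Wnt7a, Wnt7b and Wnt5a and the receptor Fzd3 were lower, Fzd3 for example at 4.32 FPKM in DR-ESC and 34.8 FPKM in NPC(GFP-). The nuclear effectors differed among themselves, since Lef1 and Tcf7 were higher, Tcf7 at 24.3 FPKM in DR-ESC and 3.06 FPKM in NPC(GFP-), Tcf7l1 was under 2-fold at 50.9 FPKM in DR-ESC and 28.2 FPKM in NPC(GFP-) and Tcf7l2 was lower at 5.32 FPKM in DR-ESC and 14.5 FPKM in NPC(GFP-). Also higher was the ligand Wnt8a, at 8.79 FPKM and listed at 0 in NPC(GFP-). Beta-catenin itself, Ctnnb1, was level at 199 FPKM in DR-ESC and 216 FPKM in NPC(GFP-), and so was the common target Axin2 at 5.48 FPKM in DR-ESC and 6.33 FPKM in NPC(GFP-). Among BMP genes 11 of 26 were lower and 1 higher (median -0.89). The target genes Id1, Id2, Id3 and Id4 were all lower in DR-ESC. Id1 was at 3.43 FPKM in DR-ESC and 16.2 FPKM in NPC(GFP-), and Id3 at 10.9 FPKM in DR-ESC and 49.8 FPKM in NPC(GFP-). Id1, Id2 and Id3 were also under both ES cell libraries, where Id3 was at 53 and 42.6 FPKM. Id4, at 3.22 FPKM in DR-ESC, was above both (2.55 and 1.21 FPKM).

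Nodal and TGF-beta genes differed by member. The list held 12 higher and 4 lower of 30 (median 0.52). The lower share, 13.3%, was near the 14.2% of all genes. Nodal and genes close to it were higher, with Nodal at 43.1 FPKM in DR-ESC and 0.13 FPKM in NPC(GFP-), Gdf3 at 26.8 FPKM and listed at 0 in NPC(GFP-), and the nuclear partner Foxh1 at 41.5 FPKM in DR-ESC and 0.527 FPKM in NPC(GFP-). The negative feedback gene Smad7 was at 17.2 FPKM in DR-ESC and 4.12 FPKM in NPC(GFP-). The co-receptor Eng was higher too, at 8.98 FPKM in DR-ESC and 0.12 FPKM in NPC(GFP-). Type I and type II receptors and the SMAD signal carriers were not. The type I receptor Tgfbr1 was at 6.25 FPKM in DR-ESC and 27 FPKM in NPC(GFP-), Acvr2a at 2.85 FPKM in DR-ESC and 9.69 FPKM in NPC(GFP-), and Smad2, Smad3 and Smad4 had negative ratios under 2-fold. The ligands Gdf1 (0.54), Tgfb2 (-0.69) and Tgfb3 (-0.83) had log2 ratios under 2-fold in size. Inhba, Inhbb and Tgfb1 stayed under 1 FPKM in both, Tgfb1 at 0.575 FPKM in DR-ESC and 0.39 FPKM in NPC(GFP-), against 8.67 and 4.28 FPKM in the ES cell libraries. Fibroblast markers were also high in the ES cell libraries, and their part in these levels was not tested. FGF genes gave 12 higher and 6 lower of 31 (median 0.37). The ligands Fgf4 (26.1 FPKM in DR-ESC and 0.0124 FPKM in NPC(GFP-)) and Fgf8 (12.1 FPKM in DR-ESC and 0.132 FPKM in NPC(GFP-)) and the ERK-driven factor Etv5 (68.8 FPKM in DR-ESC and 5.32 FPKM in NPC(GFP-)) were higher, and the receptor Fgfr3 (1.67 FPKM in DR-ESC and 26.2 FPKM in NPC(GFP-)) was lower. The early response genes Fos and Egr1 were under 2-fold. LIF and STAT3 response genes gave 9 higher and 2 lower of 19 (median 0.67). The lower ones were the LIF receptor Lifr (6.52 FPKM in DR-ESC and 16.5 FPKM in NPC(GFP-)) and the feedback inhibitor Socs3 (10.9 FPKM in DR-ESC and 35.7 FPKM in NPC(GFP-)). Socs3 was also lower in DR-ESC than in both ES cell libraries (30.1 and 33.8 FPKM).

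Some rows of the table cover microRNA host transcripts, whose poly(A) RNA is measured here and not the mature microRNA. The row that joins D7Ertd143e with Mir290, the microRNA cluster of ES cells, was at 14.9 FPKM in DR-ESC and listed at 0 in NPC(GFP-). Mir9-2, a neural microRNA locus, was at 0.382 FPKM in DR-ESC and 9.08 FPKM in NPC(GFP-), Mir124a-2, of neurons, at 0.558 FPKM in DR-ESC and 27.6 FPKM in NPC(GFP-), and Mir135a-2 at 0.0719 FPKM in DR-ESC and 2.47 FPKM in NPC(GFP-). The row that merges Hoxd3, Hoxd4 and Mir10b was at 1.08 FPKM in DR-ESC and 38.4 FPKM in NPC(GFP-). The mature forms matched in RefSeq for the Mir290, Mir9-2, Mir10b and Mir135a-2 rows are printed 5′ to 3′ with the seed, bases 2 to 8, in capitals, because the seed sets which messages a microRNA can pair with. The 2 from Mir290 belong to the locus that is higher in DR-ESC and the rest from loci that are lower.
mmu-miR-290a-3p: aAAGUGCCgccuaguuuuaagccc
mmu-miR-290a-5p: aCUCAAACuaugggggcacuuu
mmu-miR-9-5p: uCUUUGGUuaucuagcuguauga
mmu-miR-9-3p: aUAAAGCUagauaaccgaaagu
mmu-miR-10b-5p: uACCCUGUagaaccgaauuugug
mmu-miR-135a-5p: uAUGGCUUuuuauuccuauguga
No seed is shared among them.

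Adhesion genes were exchanged between the populations. Of 35 epithelial junction and keratin genes 24 were higher and 1 lower (median 1.29), and of 25 neural cadherins and adhesion molecules none was higher and 23 were lower (median -2.46). E-cadherin, Cdh1, was at 48 FPKM in DR-ESC and 1.12 FPKM in NPC(GFP-) and N-cadherin, Cdh2, at 5.98 FPKM in DR-ESC and 76.7 FPKM in NPC(GFP-). Other epithelial members were the adhesion molecule Epcam (46.6 FPKM in DR-ESC and 3.35 FPKM in NPC(GFP-)) and the tight junction claudin Cldn4 (15.2 FPKM in DR-ESC and 0.197 FPKM in NPC(GFP-)). The exception was the keratin Krt8, at 27.1 FPKM in DR-ESC and 57.2 FPKM in NPC(GFP-). Axon guidance genes gave 35 of 58 lower and 4 higher (median -1.29), and the highest of the 4 was the receptor Epha2, which ES cells use, at 77.2 FPKM in DR-ESC and 8.35 FPKM in NPC(GFP-).

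Several of the most abundant lower genes belonged to the basement membrane. Of 42 extracellular matrix genes 20 were lower and 7 higher (median -0.76). Type IV collagen chains reached 857 FPKM (Col4a1) and 543 FPKM (Col4a2) in NPC(GFP-), against 115 and 69.9 FPKM in DR-ESC. The laminin chains Lama1 (53.7 FPKM in DR-ESC and 384 FPKM in NPC(GFP-)), Lamb1 (75.6 FPKM in DR-ESC and 356 FPKM in NPC(GFP-)) and Lamc1 (120.3 FPKM in DR-ESC and 430.5 FPKM in NPC(GFP-)) and the matrix protein Sparc (185 FPKM in DR-ESC and 1034 FPKM in NPC(GFP-)) went the same way. Fibronectin, Fn1, and the laminin chain Lama5 went the other way, Fn1 at 184 FPKM in DR-ESC and 32 FPKM in NPC(GFP-). Endoderm markers moved with this group. Of 17 compared, 11 were lower in DR-ESC and 3 higher (median -1.59), and 8 of the 19 in the table had at least 5 FPKM in NPC(GFP-). The endoderm factor Gata4 was at 7.6 FPKM in DR-ESC and 39 FPKM in NPC(GFP-), Gata6 at 3.8 FPKM in DR-ESC and 15.7 FPKM in NPC(GFP-), Sox17 at 1.79 FPKM in DR-ESC and 8.32 FPKM in NPC(GFP-), Sox7 at 2.31 FPKM in DR-ESC and 10.6 FPKM in NPC(GFP-) and Dab2, an endocytic adaptor of extraembryonic endoderm, at 6.46 FPKM in DR-ESC and 27.9 FPKM in NPC(GFP-). The summed level of the 19 markers was 192 FPKM in NPC(GFP-), 106 in DR-ESC, and 241 and 157 in the unsorted and the GFP-high ES cells. The top rank of the unsorted ES cells rests on Epcam, given above as an epithelial gene. Its part of the sums was 3.35 FPKM in NPC(GFP-), 46.6 in DR-ESC, and 102 and 68.7 in the ES cells. Gata4, Gata6 and Sox17 were each highest in NPC(GFP-). Cxcr4 (50.2 FPKM) and Foxa2 are also used by neural cells. Their part in the matrix result was not tested.

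Most feeder cell markers were low on both sides. Of the 30 fibroblast markers in the table only 17 passed 1 FPKM in either library, with 4 higher and 2 lower (median 0.24). These were 23.5% and 11.8%, against 11.6% and 14.2% of all genes. Col1a1 was at 2.03 FPKM in DR-ESC and 2.06 FPKM in NPC(GFP-), Col1a2 at 0.349 FPKM in DR-ESC and 0.206 FPKM in NPC(GFP-), and S100a4 was listed at 0 in both, against 92.4, 41 and 94.7 FPKM in Oct4-GFP-ESC. Not all were low, since 4 of the 30 had at least 5 FPKM in DR-ESC and 5 in NPC(GFP-). Fbln1 was at 37.4 FPKM in DR-ESC and 22.1 FPKM in NPC(GFP-), against 22.6 and 14.1 FPKM in the ES cell libraries. Tagln was at 16.1 FPKM in DR-ESC and 16.4 FPKM in NPC(GFP-), against 130 and 85.2 FPKM. The summed level of the list was 99.5 FPKM in DR-ESC and 82.9 FPKM in NPC(GFP-), against 1116 and 880.4 FPKM in the ES cell libraries. Neural crest markers gave 8 of 12 lower and 1 higher (median -1.70), led by the endothelin receptor Ednrb (1.42 FPKM in DR-ESC and 52.1 FPKM in NPC(GFP-)), which neural progenitors also express.

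Among chromatin regulators, subunits of neural BAF complexes were lower in DR-ESC. BAF complexes, which remodel nucleosomes, swap subunits when progenitors become neurons. Of the 17 subunits of the ES cell form 1 was lower and none higher (median -0.19), and of 8 subunits of the neural form 7 were lower and none higher (median -1.65). Smarcc1 was level at 64.6 FPKM in DR-ESC and 63.3 FPKM in NPC(GFP-), while its relative Smarcc2 was at 9.92 FPKM in DR-ESC and 47.6 FPKM in NPC(GFP-). Actl6a was at 72.2 FPKM in DR-ESC and 53.7 FPKM in NPC(GFP-), while the neuronal Actl6b was at 0.176 FPKM in DR-ESC and 7.15 FPKM in NPC(GFP-). Of the splicing repressors, Ptbp1 was at 200.3 FPKM in DR-ESC and 139 FPKM in NPC(GFP-) and its neural relative Ptbp2 at 22.8 FPKM in DR-ESC and 65.4 FPKM in NPC(GFP-). Of 30 splicing regulators 16 were lower and 1 higher (median -1.21), the higher one being the epithelial regulator Esrp1.

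Genes for DNA methylation and Polycomb repression gave 11 higher and 6 lower of 43 (median 0.38). These were 25.6% and 14.0%, against 11.6% and 14.2% of all genes, so the lower share was near that of all. Dnmt3l, the cofactor of de novo methylation in germ and ES cells, was at 54.6 FPKM in DR-ESC and 0.841 FPKM in NPC(GFP-), and the methyltransferase Dnmt3b at 60.1 FPKM in DR-ESC and 6.14 FPKM in NPC(GFP-). The maintenance enzyme Dnmt1 was level at 65.9 FPKM in DR-ESC and 74.6 FPKM in NPC(GFP-). Of the TET dioxygenases, which oxidise methylcytosine, Tet1 was higher at 26.1 FPKM in DR-ESC and 4.37 FPKM in NPC(GFP-), Tet3 lower at 3.21 FPKM in DR-ESC and 21.8 FPKM in NPC(GFP-) and Tet2 level at 8.24 FPKM in DR-ESC and 7.94 FPKM in NPC(GFP-). A few Polycomb relatives, chosen after their values were seen, fell on opposite sides, with Phc1 at 136 FPKM in DR-ESC and 21.9 FPKM in NPC(GFP-) and Phc2 at 20.2 FPKM in DR-ESC and 73.1 FPKM in NPC(GFP-), and with Cbx7 at 53.3 FPKM in DR-ESC and 12.9 FPKM in NPC(GFP-) and Cbx8 at 1.64 FPKM in DR-ESC and 6.34 FPKM in NPC(GFP-). Others did not reach 2-fold. These were the catalytic subunits Ezh2 (55.4 FPKM in DR-ESC and 73.3 FPKM in NPC(GFP-)) and Ezh1 (log2 ratio 0.89), Rnf2 (-0.0347), Ring1 (-0.98), Phc3 (-0.66) and Cbx2 (-0.88).

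**Figure D4:**
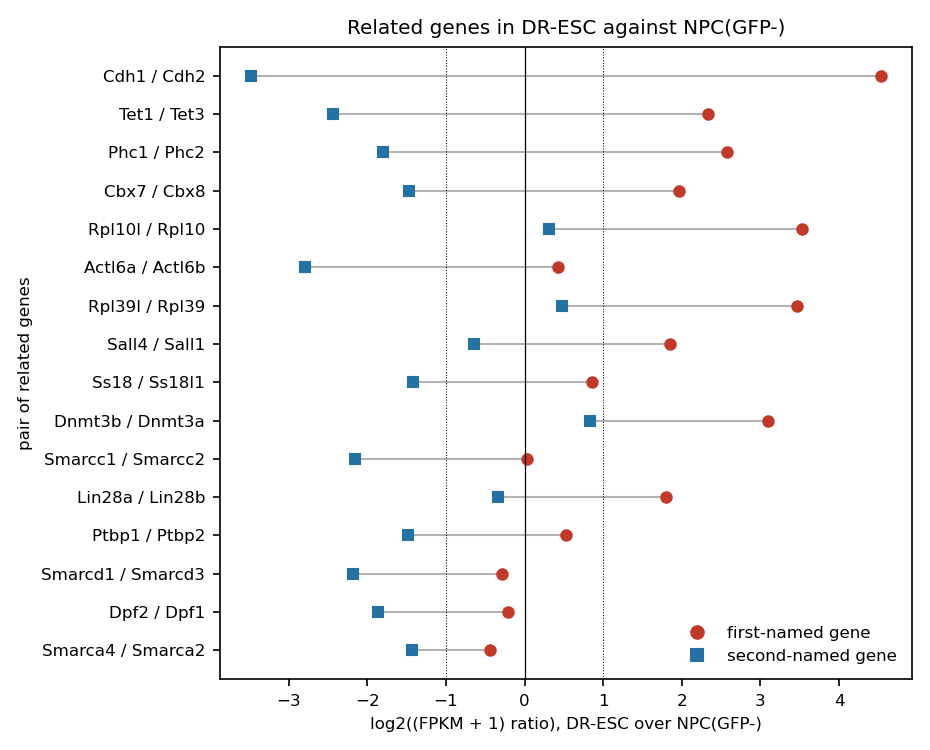
Log2 ratios of DR-ESC over NPC(GFP-) for 16 pairs of related genes, the first-named as a circle and the second-named as a square, with dotted lines at 2-fold. The pairs were chosen after their values were seen. Cdh1 (4.53) and Cdh2 (-3.48) lie farthest apart, and Tet1 with Tet3, Phc1 with Phc2 and Cbx7 with Cbx8 also fall at least 2-fold to opposite sides, whereas for BAF subunits the circle stays within 2-fold and the square is at least 2-fold lower.

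Imprinted genes, expressed from 1 parental copy, were more often lower than higher, with 16 of 35 lower and 4 higher (median -0.82). The higher share, 11.4%, was near the 11.6% of all genes. Nnat, a membrane protein of neural tissue, was at 28.1 FPKM in DR-ESC and 566 FPKM in NPC(GFP-), the cell cycle inhibitor Cdkn1c at 24.8 FPKM in DR-ESC and 224 FPKM in NPC(GFP-), Peg3 at 26.5 FPKM in DR-ESC and 95 FPKM in NPC(GFP-) and Mest at 80.7 FPKM in DR-ESC and 227 FPKM in NPC(GFP-). Igf2 (11.8 FPKM in DR-ESC and 12 FPKM in NPC(GFP-)) and H19 (13.4 FPKM in DR-ESC and 9.79 FPKM in NPC(GFP-)), neighbours in 1 domain, were within 2-fold. Phlda2, a growth regulator of the placenta, was at 19.6 FPKM in DR-ESC and listed at 0 in NPC(GFP-). MHC class I and interferon genes gave 10 higher and none lower of 16 (median 1.40). The higher ones included the membrane proteins Ifitm2 (257 FPKM in DR-ESC and 53.7 FPKM in NPC(GFP-)) and Ifitm3 (93.4 FPKM in DR-ESC and 6.82 FPKM in NPC(GFP-)) and the factor Irf1, while the class I light chain B2m was under 2-fold at 16.3 FPKM in DR-ESC and 23.7 FPKM in NPC(GFP-).

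Among metabolic genes, glycolysis and hypoxia-responsive genes were higher in 12 of 36 cases and lower in 1 (median 0.83). The glucose transporters Slc2a3 (533 FPKM in DR-ESC and 55.2 FPKM in NPC(GFP-)) and Slc2a1 (448 FPKM in DR-ESC and 113 FPKM in NPC(GFP-)) had the largest ratios, and the enzyme Aldoa (1072 FPKM in DR-ESC and 289.9 FPKM in NPC(GFP-)) was among the most abundant of the higher genes. The single lower gene was the collagen prolyl hydroxylase P4ha2 (26.7 FPKM in DR-ESC and 59.2 FPKM in NPC(GFP-)). Serine, threonine and one-carbon genes gave 9 higher and 1 lower of 27 (median 0.56), with the folate enzyme Mthfd1 at 114 FPKM in DR-ESC and 26.5 FPKM in NPC(GFP-). Sterol and fatty acid genes differed little, with 1 higher and 2 lower of 32 (median 0.037, negative when libraries were set to equal sums), and both populations exceeded the ES cell libraries. Hmgcs1, an early enzyme of cholesterol synthesis, was at 131 FPKM in DR-ESC and 245 FPKM in NPC(GFP-), against 57.2 and 34.1 FPKM, and the median member was at 45.3 and 41.8 FPKM against 23.6 and 12.2 FPKM.

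Cytosolic ribosomal protein genes leaned to DR-ESC, mostly by less than 2-fold. All 81 compared had a positive ratio, from 0.20 to 3.54, 7 of them at least 2-fold, with a median of 0.74, and 80 of them stayed positive with equal sums and 70 with the abundance trend removed. They made up 22.5% of the summed FPKM in DR-ESC and 15.4% in NPC(GFP-). The 3 with the largest ratios were Rps4y2 (235 FPKM in DR-ESC and 19.2 FPKM in NPC(GFP-)) and 2 copies best known from the testis, Rpl39l (11.4 FPKM in DR-ESC and 0.118 FPKM in NPC(GFP-)) and Rpl10l (10.6 FPKM, listed at 0 in NPC(GFP-)). The common relatives of the last 2, Rpl39 (912 FPKM in DR-ESC and 654 FPKM in NPC(GFP-)) and Rpl10 (799 FPKM in DR-ESC and 642 FPKM in NPC(GFP-)) were under 2-fold, and reads of such copies may be shared. Mitochondrial ribosomal protein genes had a median of 0.18, with 3 of 73 higher and none lower, and respiratory chain subunits a median of 0.18, with 3 of 79 higher and none lower. Both medians turned negative with equal sums. Split into 10 equal bins by abundance, all genes had a median of 0.17 in the top bin and -0.26 in the fourth, and the part of abundance in these small shifts was not tested beyond the values with the trend removed. Housekeeping genes gave 2 higher and none lower of 27 (median 0.24), with Actb at 1136 FPKM in DR-ESC and 1011 FPKM in NPC(GFP-) and Tbp at 16.4 FPKM in DR-ESC and 16.4 FPKM in NPC(GFP-).

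Cell cycle genes were near level. Of 43 drivers and replication genes 4 were higher and 4 lower (9.30% each, median 0.26), under the 11.6% and 14.2% of all genes. Mybl2, a factor of cycling stem cells, was at 137 FPKM in DR-ESC and 24 FPKM in NPC(GFP-), and cyclin D2, Ccnd2, at 16 FPKM in DR-ESC and 90.8 FPKM in NPC(GFP-). The proliferation marker Mki67 was within 2-fold at 34 FPKM in DR-ESC and 49.9 FPKM in NPC(GFP-), and Pcna at 221 FPKM in DR-ESC and 199.5 FPKM in NPC(GFP-). Targets of p53 and CDK inhibitors gave 6 higher and 4 lower of 29 (median -0.0398). These were 20.7% and 13.8% of the list, against 11.6% and 14.2% of all genes. Trp53 itself was higher, at 159.5 FPKM in DR-ESC and 54.6 FPKM in NPC(GFP-), while its target Cdkn1a was under 2-fold at 53 FPKM in DR-ESC and 65.2 FPKM in NPC(GFP-). The death gene Pmaip1 was higher at 13 FPKM in DR-ESC and 1.61 FPKM in NPC(GFP-), and the arrest gene Gadd45g was lower at 9.86 FPKM in DR-ESC and 81.2 FPKM in NPC(GFP-).

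Features that the comparison did not use also differed between higher and lower genes. A promoter was called CpG-poor when its CpG ratio was under 0.35. This held for 29.6% of 1058 promoters of higher genes (exact binomial 95% interval 26.8 to 32.4, counting error only), 13.1% of 1309 of lower genes (11.4 to 15.1) and 7.10% of 7426 of genes under 2-fold (6.52 to 7.70). Among all 9793 promoters of compared genes it was 10.3%. The share was 39.3% for the 145 genes at least 8-fold higher and 15.5% for the 103 at least 8-fold lower. These intervals take genes as independent, but genes share promoter classes by family, so they are no test of the difference. The classes were not matched for level. Of the higher genes, 148 were listed at 0 in NPC(GFP-) and so passed the minimum through DR-ESC only. All 10 of the promoters at hand of 2-cell-like genes were CpG-poor. Gene span ran the other way, with a median of 18.3 kb for higher genes, 35.6 kb for lower genes and 24.4 kb for all. This did not extend to the largest differences among lower genes. The 4-fold to 8-fold lower genes were the longest at a median of 49.96 kb, while those at least 8-fold lower had a median of 22.3 kb, and those at least 8-fold higher 13.1 kb. The E-box CAGCTG, which proneural factors bind and which reads the same on both strands, was found in 19.4% of promoters of higher genes, 18.0% of those of lower genes and 14.7% of all compared, so it did not set the lower genes apart.

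**Figure D5:**
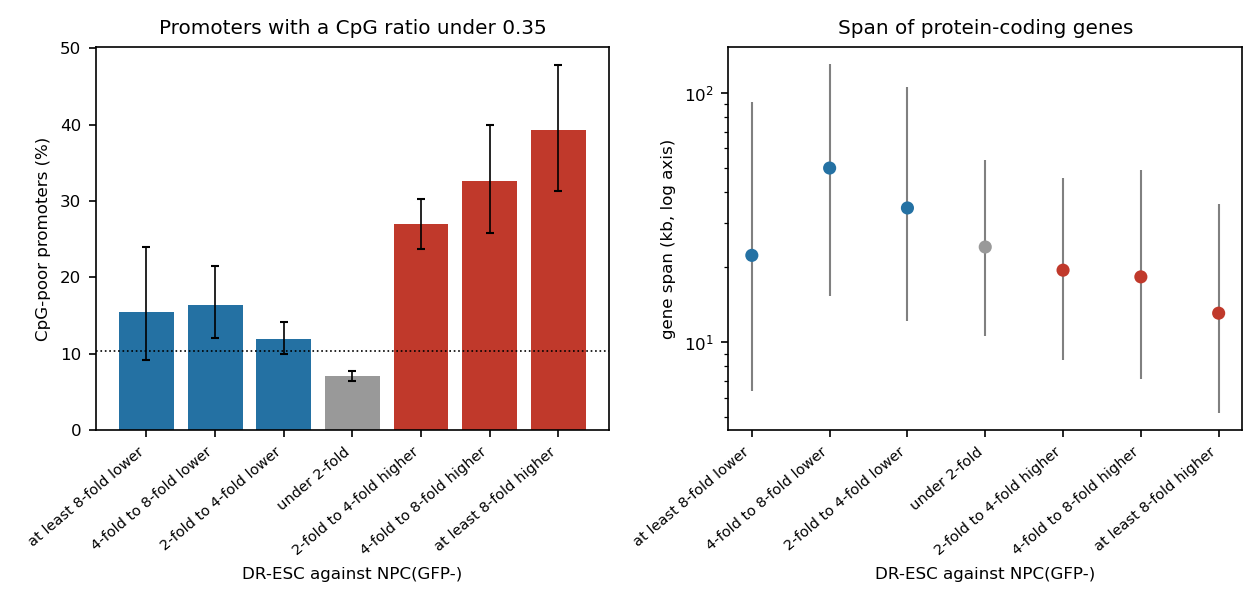
Left, share of promoters with a CpG ratio under 0.35 by class of difference between DR-ESC and NPC(GFP-), with exact binomial 95% intervals as bars and the share among all compared genes (10.3%) dotted. Right, median gene span in kb on a log axis (points) with quartiles (lines). The CpG-poor share climbs from 7.10% under 2-fold to 39.3% at 8-fold higher, and the median span is greatest at 4-fold to 8-fold lower and shorter, at 22.3 kb, at 8-fold lower or more.

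By chromosome, the share of compared genes that were higher ran from 7.97% on chromosome 5 to 15.9% on chromosome 4, and the share that were lower from 9.41% on chromosome 17 to 18.7% on chromosome 18, against 11.6% and 14.2% for all.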

How the data were processed

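Poly(A) RNA-seq of 4 mouse libraries, 1 per population, was used, and DR-ESC and NPC(GFP-) were compared. Groups follow the sample titles. Per gene and library, the deposited values are on a log2 scale. They were read as log2(FPKM + 1), because undoing that transform gave numbers of at most 6 significant digits for 99.7% of them, zeros aside. The submitters' processing notes name Bowtie 0.12.8, TopHat2 2.0.9, CASAVA 1.8, HTSeq and DESeq2, and build mm10, without role or order. Sources used here do not state the FPKM program, strand use or scaling of libraries, and overlapping, antisense and near-identical genes may share reads. FPKM carries no read counts, so depth is unknown and a 0 is reported as listed.

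Of 13199 rows, 19 with symbols turned into dates were dropped, and 12649 with at least 1 FPKM in either library were compared, with a pseudocount of 1. RefSeq (GRCm38.p6) matched 12791 rows (97.0%). The members and 48 lists, some sharing genes, were chosen with earlier results of these data known. Named genes are the 15 highest and 15 lowest with at least 5 FPKM in either library (predicted and small RNA genes left out), up to 4 leading members of each list per direction, abundant or level genes, and genes fixed by name. Where a list member that these rules do not take is named, it was chosen after its value was seen. Some list members that count toward their lists are not reported here by name. The code was tested on simulated data. Computation used Python 3.11.15, numpy 2.4.6, pandas 2.3.3, scipy 1.17.1 and matplotlib 3.10.9.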

Additional observations from a re-analysis of the deposited data

How the results depend on the processing

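No paired analysis was possible because each group has 1 library, and for the same reason no library could be left out. The count of higher genes (1465) became 624 with a pseudocount of 5, 925 with a minimum of 5 FPKM and 449 at a 4-fold size. The count of lower genes (1792) became 814 with a pseudocount of 5 and 515 at a 4-fold size. Under the other alternatives (pseudocount 0.1, no minimum, median ratio set to 0, upper quartile, equal sums with and without ribosomal protein genes, abundance trend removed) both counts stayed within 1.5 times. Equal sums moved the median of all genes to -0.23 and the share of higher among all calls from 45.0% to 35.8%. The median of all genes changed sign, to 0.0058, under upper-quartile scaling. List medians near 0 also changed sign. Equal sums gave -0.16 for sterol and fatty acid genes, -0.013 for mitochondrial ribosomal proteins, -0.026 for respiratory chain subunits and -0.18 for solute carriers, and without ribosomal protein genes in the sums the sterol and solute carrier medians were -0.037 and -0.065. A minimum of 5 FPKM gave -0.023 for fibroblast, -2.02 for mesoderm and -0.82 for trophoblast markers. Removing the abundance trend gave -0.033 for mesoderm, -0.0051 for trophoblast and -0.022 for respiratory chain genes, and upper-quartile scaling gave 0.020 for p53 targets. The cause was not tested. With a CpG ratio limit of 0.5, chosen after seeing the data, 41.4% of promoters of higher genes, 22.8% of lower and 17.6% of all were CpG-poor. Depth is unknown, so genes near 1 FPKM carry the least weight.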

Other observations

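Solute carriers, the largest family of membrane transporters, showed both directions at near equal numbers, with 40 higher and 32 lower of 205 (median log2 ratio 0.00529, negative with equal sums). These were 19.5% and 15.6%, against 11.6% and 14.2% of all genes. Higher members included the arginine transporter Slc7a3 (38.4 FPKM in DR-ESC and 1.21 FPKM in NPC(GFP-)) and the amino acid transporter Slc38a4 (60.8 FPKM in DR-ESC and 4.36 FPKM in NPC(GFP-)). Lower members included the transporter of inhibitory neurotransmitters into vesicles, Slc32a1 (0.462 FPKM in DR-ESC and 7.17 FPKM in NPC(GFP-)), and the glutamate transporter Slc1a2 (0.219 FPKM in DR-ESC and 5.52 FPKM in NPC(GFP-)).

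Markers of other lineages were few. Mesoderm markers gave 2 higher and 2 lower of 8 (median 0.59), trophoblast markers 4 higher and 2 lower of 11 (median 0.42), and blood and endothelial markers 4 higher and 1 lower of 7 (median 1.33). The mesoderm and trophoblast medians turned negative with a minimum of 5 FPKM or with the abundance trend removed. The adhesion molecule Pecam1, which ES cells also express, was at 18.3 FPKM in DR-ESC and 0.0922 FPKM in NPC(GFP-). Lyz2, a gene of macrophages, was listed at 0 in both.

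The merged row of the imprinted noncoding RNA Meg3 and 2 microRNAs, singled out after its values were seen, was at 0.166 FPKM in DR-ESC and 0.0364 FPKM in NPC(GFP-), under the minimum for comparison. It was at 20.1 FPKM in Oct4-GFP-H-ESC and 13.3 FPKM in Oct4-GFP-ESC. Rows of small nucleolar RNAs, also singled out afterwards, gave large ratios without a common direction across libraries. Snora70, for example, was listed at 0 in DR-ESC and Oct4-GFP-H-ESC, and stood at 627 FPKM in NPC(GFP-) and 829.9 FPKM in Oct4-GFP-ESC.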
